A study of Mus musculus with 16 samples.

Results

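Glycolysis and hypoxia response genes were followed across young and aged lung endothelial cells (ECs, which form the inner lining of vessels) with and without bleomycin injury. The group holds 35 genes of the 43346 genes in the deposited table and was chosen by gene symbol: 9 enzymes and isoforms of upper glycolysis, 5 of lower glycolysis, 2 lactate dehydrogenase subunits, 3 regulators of flux through the pathway, 6 subunits and sensors of the hypoxia-inducible factor (HIF) system and 10 genes known to respond to low oxygen. All 35 symbols were found, and all 35 were among the 18515 genes that DESeq2 tested against Young Sham. RNA sequencing was done on ECs sorted from mouse lungs, in 16 libraries. Young Sham (n = 5 libraries) were 2-month-old mice given the saline carrier, Young Bleo (n = 4) were 2-month-old mice given bleomycin, a chemotherapy agent whose lung toxicity leads to scarring, Aged Sham (n = 3) were 18-month-old mice given the carrier, and Aged Bleo (n = 4) were 18-month-old mice given bleomycin. All mice of all groups were FVB and, per the methods of the study, carried a GFP reporter driven by the collagen gene Col1a1, were treated through the trachea once and were sampled after 30 days. The sorted cells were CD31+ and negative for CD45, EpCAM and the reporter, so cells with an active Col1a1 promoter were left out of every group. Nothing states which libraries shared a preparation day, and the p-values measure the spread between the libraries of a group.

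Glycolysis splits glucose into pyruvate through a chain of enzymes, and lactate dehydrogenase turns pyruvate into lactate when it does not enter the mitochondria. ECs are known to draw much of their energy from this chain even when oxygen is present. When oxygen falls, the alpha subunits of HIF escape hydroxylation by the prolyl hydroxylases and destruction through the VHL protein, pair with the ARNT subunit and switch on glycolytic enzymes together with genes for mitochondrial turnover, collagen hydroxylation and vessel tone.

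The libraries held between 20907113 and 71035301 counts each. All of them expressed endothelial markers, with the summed FPKM (fragments per kilobase of gene, scaled to library size) of 10 endothelial markers, Pecam1 and Cdh5 among them, at 2351 to 2606 in Young Sham, 2045 to 2218 in Aged Sham, 1561 to 2015 in Young Bleo and 1421 to 2039 in Aged Bleo. Of these 10 markers 2 were called higher and 2 lower in Young Bleo, and 1 higher and 2 lower in Aged Bleo, against Young Sham. Kdr, the main VEGF receptor, was at 116 to 190.2 FPKM in Young Sham, at 26.5, 32.0 and 29.3 in Young Bleo 17, 18 and 19 and at 29.5 and 30.1 in Aged Bleo 1 and 2, but at 103 in Young Bleo 20 and at 103 and 78.7 in Aged Bleo 3 and 5. In Aged Sham 13, 14 and 15 Kdr was at 73.6, 68.3 and 126.1 FPKM. Within Aged Bleo, replicates 1 and 2 stood apart from replicates 3 and 5, with a chi-square per degree of freedom of 328 to 459 between these pairs against 88.9 and 114 within them. The summed FPKM of 9 macrophage markers was 22.9 to 43.5 in Young Sham, 152.5 to 445 in Young Bleo, 52.8 to 182 in Aged Sham and 1559, 878, 361 and 212 in Aged Bleo 1, 2, 3 and 5. The leukocyte surface gene Ptprc, which encodes CD45, was at 0.52 FPKM or less in every library. The summed FPKM of 3 platelet markers was 226.7 to 440.3 in Young Sham and 823, 2905 and 526.5 in Aged Sham 13, 14 and 15, all above that range, and 2 of the 3 were called higher in Aged Sham against Young Sham and 2 lower in Aged Bleo against Aged Sham.

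Against Young Sham, 29 of the 35 genes had a positive log2 fold change in Young Bleo and 32 in Aged Bleo. Over the 18515 genes tested the sign was positive for 9408 and 9650. No gene of the group was called lower by DESeq2, the test named by the study. A call needed an adjusted p no higher than 0.05 and a log2 difference of 0.5 or more in size. Aged Bleo and Young Sham differ in both age and treatment. Against Aged Sham, 2 of the 35 genes were called in Aged Bleo by DESeq2 and 0 by edgeR, as given below. In Young Bleo 17 of 35 genes were higher, against 7.57% of the 18515 genes tested across the table that were called higher and 6.35% that were called lower. In Aged Bleo 20 of 35 were higher, against 6.58% of all genes called higher and 3.14% called lower. In Aged Sham 4 of 35 were higher, against 2.24% called higher and 1.12% called lower. The median log2 fold change of the 35 genes was 0.93 in Young Bleo, 0.93 in Aged Bleo and 0.49 in Aged Sham, beside 0.01, 0.02 and 0.02 over all genes tested. These 3 comparisons share the 5 Young Sham libraries. By the edgeR quasi-likelihood test, 15, 14 and 0 of the 35 genes were called in Young Bleo, Aged Bleo and Aged Sham, beside 9.78%, 5.69% and 0.862% of all genes called in either direction. At an unadjusted p under 0.05 the edgeR count was 10 in Aged Sham, and the genes with a lower level at that p were 2 in Young Bleo by DESeq2, 1 there by edgeR, and 0 in Aged Sham and Aged Bleo by either test.

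**Figure D1:**
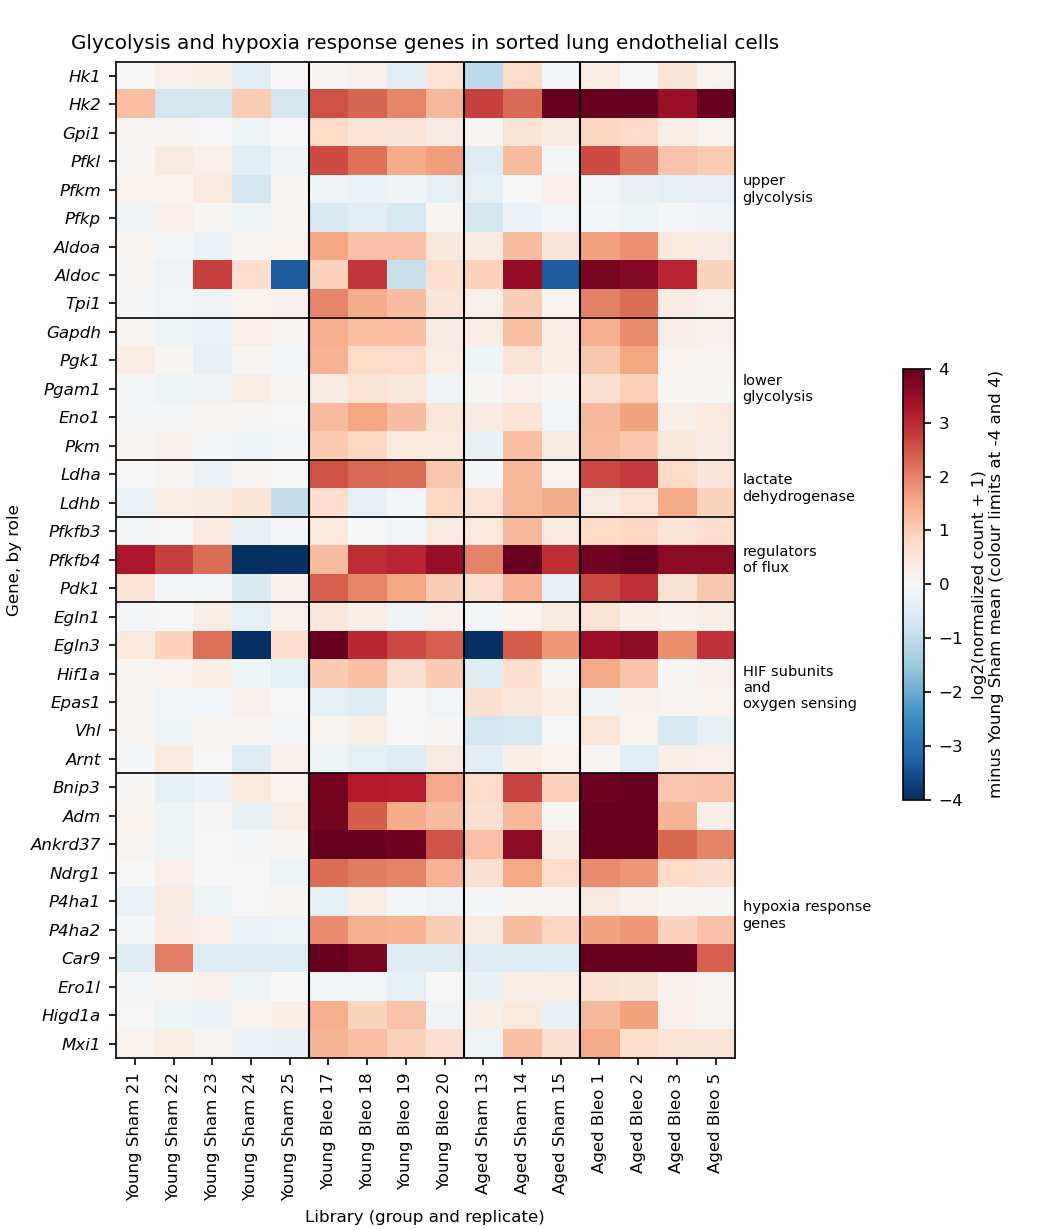
Level of the 35 genes (rows, by role) in the 16 libraries (columns, by group), as log2(normalized count + 1) minus the Young Sham mean of the same gene, with red above and blue below that mean and colours limited at -4 and 4. Red runs through the Young Bleo columns and Aged Bleo 1 and 2, is paler in Young Bleo 20 and Aged Bleo 3 and 5, and also appears in Aged Sham 14.

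The count in Aged Bleo rested on some libraries more than others. It was 12 without Aged Bleo 1 and 11 without Aged Bleo 2, and 15 to 21 when any other library was left out. With Aged Bleo 1 and 2, the libraries with the most macrophage marker RNA, both left out, 2 genes were still called, Hk2 and P4ha2, against 1.36% of the 18225 genes tested in that fit called higher, and the median of the 35 genes was 0.38. In Young Bleo the count stayed between 12 and 20, with 12 genes when Young Bleo 17 was left out and 20, of which 1 was lower, without Young Bleo 20. In Aged Sham it fell from 4 to 1 without Aged Sham 14, to 1 without Young Sham 25 and to 2 without Young Sham 21. The median of the 35 genes in Aged Sham was 0.12 without Aged Sham 14, 0.72 without Aged Sham 13 and 0.62 without Aged Sham 15.

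**Figure D2:**
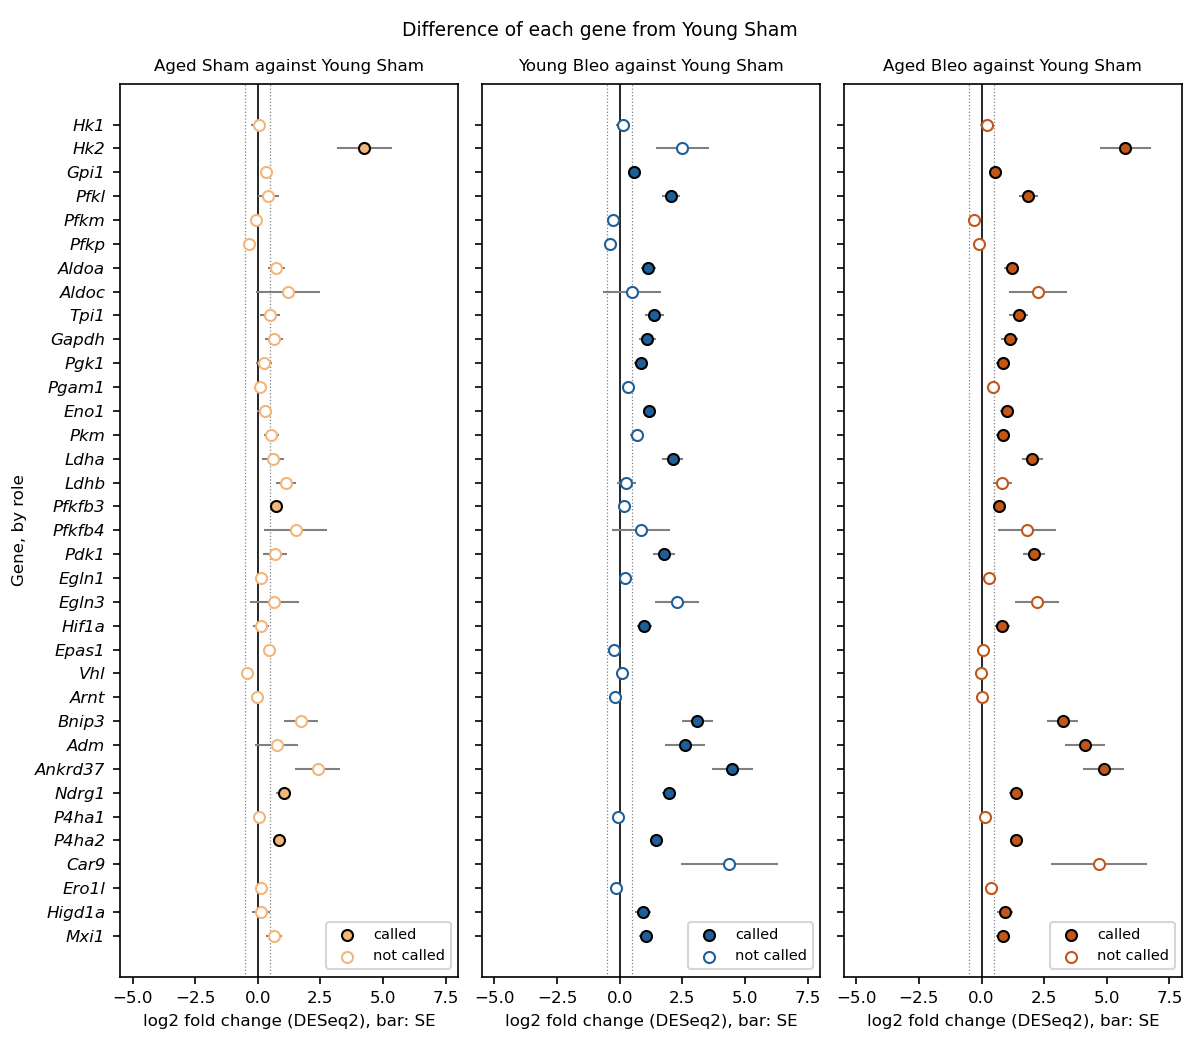
Log2 fold change by DESeq2 (x axis) with its SE (bars) of each of the 35 genes (y axis, by role) in Aged Sham, Young Bleo and Aged Bleo against Young Sham, with filled points for called genes and dotted lines at the fold threshold. In Young Bleo 17 points and in Aged Bleo 20 points are filled, all to the right of 0, and 4 are filled in Aged Sham; Car9 is not drawn for Aged Sham because it had no count there.

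Of the HIF subunits and oxygen sensors, 1 of 6 was called, Hif1a, in each of the bleomycin groups, and none in Aged Sham. Levels per gene length differed widely between the alpha subunits: in Young Sham Epas1, which encodes the alpha subunit abundant in endothelium, was at 123 ± 6.12 FPKM (SD, n = 5) and Hif1a at 3.32 ± 0.666 FPKM. Normalized counts (counts divided by the DESeq2 size factor) are given within each group in replicate order, which is 21 to 25 for Young Sham, 17 to 20 for Young Bleo, 13 to 15 for Aged Sham and 1, 2, 3 and 5 for Aged Bleo. Hif1a (chr12:73901375-73947530 in mm10) was at 2104, 2155, 2337, 1730.1 and 1521 in Young Sham and 4055, 4473, 3014 and 4009 in Young Bleo. The same gene was at 1381, 3082 and 2025 in Aged Sham and 5507, 4327, 1997 and 2199.6 in Aged Bleo. All Young Bleo libraries lay above all Young Sham libraries, whereas only replicates 1 and 2 of Aged Bleo did, with replicates 3 and 5 among the Young Sham values. The level was 1.97-fold in Young Bleo (log2 fold change 0.98 ± 0.29 (SE), adjusted p = 0.00952; edgeR 0.036) and 1.78-fold in Aged Bleo (log2 fold change 0.83 ± 0.29 (SE), adjusted p = 0.0449; edgeR 0.0953). The Aged Bleo call was lost without Aged Bleo 1 or 2 or Young Sham 21, 22, 24 or 25, with an adjusted p of up to 0.32.

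Epas1 (chr17:86753907-86833410) was at 69394, 60815, 61380.5, 74126 and 65479.8 normalized counts in Young Sham and at 102190.0, 91728 and 80659 in Aged Sham, so that the Aged Sham libraries were all above the Young Sham libraries. It was at 50972, 46483, 64920.4 and 60933 in Young Bleo and 59694, 73956, 71999 and 72209 in Aged Bleo, which overlapped with Young Sham. The Aged Sham difference passed the adjusted p but not the fold threshold (log2 fold change 0.47 ± 0.14 (SE), adjusted p = 0.0234; edgeR 0.128). All Aged Bleo libraries were below all Aged Sham libraries, with a log2 fold change of -0.40 ± 0.14 and an adjusted p of 0.0698 by DESeq2. Arnt, Vhl and Egln1, the shared partner, the ubiquitin ligase component and the main prolyl hydroxylase, had log2 fold changes between -0.43 (Vhl in Aged Sham) and 0.31 (Egln1 in Aged Bleo) against Young Sham, and none was called.

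Egln3, a prolyl hydroxylase that HIF itself induces (chr12:54178981-54203860), was low. It was at 23.6, 33.8, 84.1, 0 and 28.4 in Young Sham and 0, 98.1 and 60.3 in Aged Sham. Egln3 was at 297, 149.7, 115 and 96.6 in Young Bleo and 198, 219, 66 and 137 in Aged Bleo. All Young Bleo libraries lay above all Young Sham libraries, and the other groups overlapped. The difference did not pass the threshold in Young Bleo (log2 fold change 2.29 ± 0.88 (SE), adjusted p = 0.0581) or in Aged Bleo (2.20 ± 0.88, adjusted p = 0.0899), and with only the compared groups in the fit it was called in both.

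Of the 10 hypoxia response genes 7 were higher in Young Bleo, 7 in Aged Bleo and 2 in Aged Sham, and the median log2 fold change was 1.70, 1.38 and 0.70 in these groups. By edgeR 6, 5 and 0 were called. Across all genes 7.57%, 6.58% and 2.24% were called higher in these groups by DESeq2. Promoter sequence is shown for the genes with some of the largest or surest differences, Ankrd37, Bnip3, Pfkl and P4ha2, and for P4ha1, the sister gene of P4ha2 that was not called. Each window holds 250 bases before and 50 after a RefSeq start site on GRCm38.p6, the same assembly as mm10. Capitals mark the core of the HIF response element, ACGTG or GCGTG, on either strand, which reads CACGT or CACGC on the other strand; overlapping matches were counted separately.

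Ankrd37, chr8:45999801-46000100, minus strand: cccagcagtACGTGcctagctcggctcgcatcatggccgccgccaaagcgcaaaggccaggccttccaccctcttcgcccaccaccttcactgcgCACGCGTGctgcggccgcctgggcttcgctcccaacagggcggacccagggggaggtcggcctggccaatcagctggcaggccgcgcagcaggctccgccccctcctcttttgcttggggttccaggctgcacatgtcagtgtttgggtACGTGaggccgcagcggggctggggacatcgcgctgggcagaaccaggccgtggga

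Bnip3, chr7:138909457-138909756, minus strand: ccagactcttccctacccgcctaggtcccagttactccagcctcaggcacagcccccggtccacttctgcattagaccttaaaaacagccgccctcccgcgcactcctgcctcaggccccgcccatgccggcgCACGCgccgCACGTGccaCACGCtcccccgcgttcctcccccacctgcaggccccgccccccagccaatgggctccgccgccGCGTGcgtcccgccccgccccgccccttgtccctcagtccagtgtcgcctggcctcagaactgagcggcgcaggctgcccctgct

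Pfkl, chr10:78009758-78010057, minus strand: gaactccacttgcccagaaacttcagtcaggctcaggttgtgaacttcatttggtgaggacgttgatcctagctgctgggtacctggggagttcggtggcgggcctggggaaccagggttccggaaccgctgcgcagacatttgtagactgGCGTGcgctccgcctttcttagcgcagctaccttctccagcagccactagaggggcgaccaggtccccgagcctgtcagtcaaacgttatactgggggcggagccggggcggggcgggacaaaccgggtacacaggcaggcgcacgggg

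P4ha2, chr11:54100674-54100973, plus strand: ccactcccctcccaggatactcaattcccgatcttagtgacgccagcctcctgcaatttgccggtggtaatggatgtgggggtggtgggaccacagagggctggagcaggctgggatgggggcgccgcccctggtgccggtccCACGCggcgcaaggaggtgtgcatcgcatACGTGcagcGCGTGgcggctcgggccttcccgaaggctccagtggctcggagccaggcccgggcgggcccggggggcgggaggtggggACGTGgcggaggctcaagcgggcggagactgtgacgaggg

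P4ha1, chr10:59323046-59323345, plus strand: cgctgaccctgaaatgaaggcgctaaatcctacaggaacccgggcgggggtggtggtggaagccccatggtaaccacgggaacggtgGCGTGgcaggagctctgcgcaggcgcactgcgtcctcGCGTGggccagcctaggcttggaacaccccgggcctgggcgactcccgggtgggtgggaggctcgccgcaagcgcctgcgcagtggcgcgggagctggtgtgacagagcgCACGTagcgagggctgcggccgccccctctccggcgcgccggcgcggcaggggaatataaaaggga

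The windows of Ankrd37, Bnip3, Pfkl, P4ha2 and P4ha1 held 4, 5, 1, 4 and 3 cores. RefSeq windows were found for 33 of the 35 genes, with Ero1l listed as Ero1a, and a core stood in at least 1 window of 30 of them (90.9%), against 12628 of 27025 genes in the table (46.7%). Among the genes called higher in either bleomycin group against Young Sham it was 17 of 19 (89.5%) and among the others 13 of 14 (92.9%). Of all 32851 windows of this length, 43.8% held a core, against 81.2% of the 48 windows of the 33 genes. More windows per gene raise the share of genes with at least 1 core. Both cores contain CG, and the base composition of the windows was not matched. Gpi1 and Tpi1 were called without a core in their windows. A match is a stretch of letters and no measure of binding.

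Ankrd37, an ankyrin-repeat gene known as a HIF target (chr8:45996902-45999867), was the gene with the largest difference in Young Bleo. It was at 581, 479, 541, 517 and 579 in Young Sham and 21308, 15874, 8025 and 3082 in Young Bleo. It was at 1207, 6595 and 684 in Aged Sham and 26032, 32444, 2671 and 2132 in Aged Bleo. Every library of the other groups was above every Young Sham library, and Aged Bleo 1 and 2 were the highest of all 16, while Aged Bleo 3 and 5 were below all Young Bleo libraries. The level was 22.4-fold in Young Bleo (log2 fold change 4.48 ± 0.82 (SE), adjusted p = 3.54e-06; edgeR 0.00498) and 29.3-fold in Aged Bleo (log2 fold change 4.88 ± 0.82 (SE), adjusted p = 4.26e-07; edgeR 0.00478), and the difference in Aged Sham did not pass (2.39 ± 0.89, adjusted p = 0.123). The gene overlaps Ufsp2 and Lrp2bp, whose mean normalized counts were 26.2% and 10.7% of its own. Reads of these genes could not be told apart without the strand setting.

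Bnip3, which marks mitochondria for removal (chr7:138890836-138909519), was also higher in both bleomycin groups. It was at 1983, 1502, 1655, 2588 and 2128 in Young Sham and 27613, 17346, 16915 and 5562 in Young Bleo. It was at 3321, 12580.1 and 3651 in Aged Sham and 28515, 37679.5, 4152 and 4310.1 in Aged Bleo. All other libraries were above the Young Sham range, and Aged Bleo 3 and 5 lay between the Aged Sham values and below all Young Bleo libraries. Bnip3 rose 8.55-fold in Young Bleo (log2 fold change 3.10 ± 0.62 (SE), adjusted p = 2.66e-05) and 9.47-fold in Aged Bleo (log2 fold change 3.24 ± 0.62 (SE), adjusted p = 1.17e-05), and was 1.73 ± 0.67 in Aged Sham with an adjusted p of 0.149.

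Ndrg1, a stress-response gene induced by low oxygen and by differentiation (chr15:66929321-66969640), had the lowest adjusted p of the 35 genes. It was at 2442, 2827, 2471, 2407 and 2142 in Young Sham and 11441, 10378, 9729.8 and 6402 in Young Bleo. It was at 3781, 7211 and 4133 in Aged Sham and 8989, 8282, 4300.3 and 3926 in Aged Bleo. The 3 groups were each above Young Sham without overlap, and Aged Sham and Aged Bleo overlapped with each other. Ndrg1 rose 3.86-fold in Young Bleo (log2 fold change 1.95 ± 0.27 (SE), adjusted p = 2.9e-10), 2.59-fold in Aged Bleo (log2 fold change 1.38 ± 0.27 (SE), adjusted p = 2.45e-05) and 2.05-fold in Aged Sham (log2 fold change 1.04 ± 0.29 (SE), adjusted p = 0.0179; edgeR 0.0938). The Aged Sham call was lost without Aged Sham 14 or Young Sham 25, with an adjusted p of up to 0.293.

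P4ha2, a catalytic subunit of the collagen prolyl hydroxylase (chr11:54100095-54131665), was called in all 3 groups against Young Sham. It was at 856, 1117, 1035, 740.5 and 796 in Young Sham and 1145, 2110.3 and 1621 in Aged Sham. P4ha2 was at 3335, 2472, 2333 and 1831 in Young Bleo and 2714, 2978, 1712 and 2031 in Aged Bleo. No library of these groups overlapped with Young Sham, although Aged Sham 13 was close to the highest Young Sham library. The difference was log2 fold change 1.46 ± 0.23 (SE), adjusted p = 6.19e-08 in Young Bleo, 1.38 ± 0.23, adjusted p = 4.26e-07 in Aged Bleo and 0.84 ± 0.25, adjusted p = 0.03 in Aged Sham by DESeq2, where edgeR gave 0.107. The Aged Sham call was lost without Aged Sham 14 or 15 or Young Sham 21, 24 or 25 (adjusted p of up to 0.301), and both bleomycin calls were kept under every library left out.

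Adm, the vasodilator peptide adrenomedullin (chr7:110627661-110629820), varied widely between libraries of a group. It was at 197, 157, 187, 147 and 219 in Young Sham and 278, 449 and 190.1 in Aged Sham. Adm was at 2551, 959.7, 504 and 420.4 in Young Bleo and 5630.2, 6537, 459 and 218 in Aged Bleo. Aged Bleo 1 and 2 were above all other libraries, and Aged Bleo 5 lay inside the Young Sham range. Adm rose 6.11-fold in Young Bleo (log2 fold change 2.61 ± 0.80 (SE), adjusted p = 0.0113) and 17.7-fold in Aged Bleo (log2 fold change 4.14 ± 0.80 (SE), adjusted p = 1.79e-05). The Young Bleo call was lost without Young Bleo 17, where the adjusted p was 0.156. With a library left out the log2 fold change ranged from 1.79 to 2.88 in Young Bleo and from 3.53 to 4.535 in Aged Bleo.

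Mxi1, a repressor that opposes Myc (chr19:53310506-53375810), was at 2728, 3007, 2694, 2092 and 1996 in Young Sham and 2148, 5732 and 3880.3 in Aged Sham. Mxi1 was at 6399, 5688, 4724 and 3897 in Young Bleo and 7103, 4069, 3592 and 3541 in Aged Bleo. Both bleomycin groups were above Young Sham without overlap, and it rose 2.07-fold in Young Bleo (log2 fold change 1.05 ± 0.28 (SE), adjusted p = 0.00241) and 1.83-fold in Aged Bleo (log2 fold change 0.87 ± 0.28 (SE), adjusted p = 0.0205; edgeR 0.0605). The Aged Bleo call was lost without Aged Bleo 1 or Young Sham 24 or 25, with an adjusted p of up to 0.204. Higd1a, a mitochondrial protein induced by hypoxia, was called in both bleomycin groups with 0.93 ± 0.33 (adjusted p = 0.0329 by DESeq2) in Young Bleo and 0.93 ± 0.33 (0.0441) in Aged Bleo, although both groups overlapped with Young Sham. By edgeR neither Higd1a call was made. The first was lost without Young Bleo 17, 18 or 19 or Young Sham 21, 22 or 23 and the second without Aged Bleo 1 or 2 or any Young Sham library.

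Car9, the membrane carbonic anhydrase often used as a hypoxia marker (chr4:43506966-43513729), had few counts. It was at 0, 4.94, 0, 0 and 0 in Young Sham and 0, 0 and 0 in Aged Sham. Car9 was at 69.3, 18.7, 0 and 0 in Young Bleo and 23.5, 35.4, 43.8 and 6.49 in Aged Bleo. All Aged Bleo libraries had counts and no Aged Sham library did, and the Aged Bleo mean was at least 6.71-fold higher than the level that 3 counts per library would give in Aged Sham. No comparison of Car9 passed, with an adjusted p of 0.0569 for Aged Bleo against Aged Sham, although with only the compared groups in the fit it was called in Aged Bleo against either sham group, and all counts of the gene in Young Sham came from 1 library. Gm12454 overlaps Car9 on the other strand, with a mean normalized count of 27.7% of that of Car9. Its reads could not be told apart without the strand setting. P4ha1, the other catalytic subunit of the collagen hydroxylase, and Ero1l, an oxidase that forms disulfide bonds, were not called in any comparison, with log2 fold changes against Young Sham of -0.08 to 0.14 for P4ha1 and -0.14 to 0.37 for Ero1l.

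**Figure D3:**
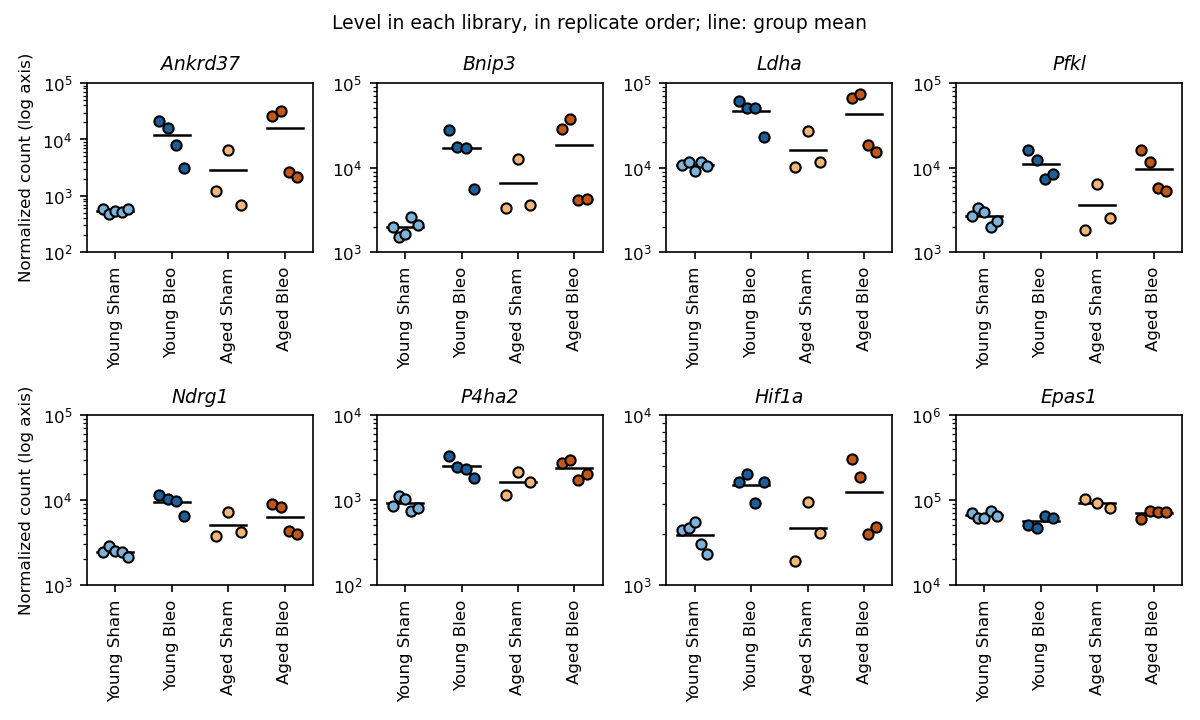
Normalized counts (log axis) of 8 of the genes in each library, in replicate order within each group, with a line at the group mean. In Ankrd37, Bnip3, Ldha, Pfkl and Ndrg1 the Aged Bleo points split into replicates 1 and 2 above and replicates 3 and 5 below, whereas Epas1 stays within a narrow band and is highest in Aged Sham.

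In upper glycolysis, from glucose to the triose phosphates, 4 of 9 genes were higher in Young Bleo, 5 in Aged Bleo and 1 in Aged Sham. By edgeR 4, 5 and 0 were called. Pfkl, the liver-type subunit of phosphofructokinase, the enzyme of the committed step (chr10:77986947-78010083), was at 2728, 3366, 3004, 1971 and 2346 in Young Sham and 16209, 12263, 7411 and 8399 in Young Bleo. It was at 1854, 6370.2 and 2541 in Aged Sham and 16041, 11741, 5819 and 5374 in Aged Bleo. The bleomycin groups were above Young Sham without overlap, and Aged Sham 14 exceeded Aged Bleo 3 and 5. Pfkl rose 4.13-fold in Young Bleo (log2 fold change 2.04 ± 0.38 (SE), adjusted p = 3.93e-06; edgeR 0.00459) and 3.63-fold in Aged Bleo (log2 fold change 1.86 ± 0.38 (SE), adjusted p = 4.57e-05; edgeR 0.00955), and both calls were kept under every library left out.

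Aldoa, the main aldolase (chr7:126795234-126800751), was the glycolytic gene with the highest level per length, at 106 ± 8.6 FPKM in Young Sham. Its normalized counts were 31308, 27719.7, 25265, 31400.3 and 32849.9 in Young Sham and 38134, 69145 and 42059 in Aged Sham. Aldoa was at 88979.9, 66874, 66449 and 40256 in Young Bleo and 92468, 104192, 39749.5 and 37433 in Aged Bleo. All other libraries were above the Young Sham range, and Aldoa rose 2.21-fold in Young Bleo (adjusted p = 0.00297) and 2.3-fold in Aged Bleo (adjusted p = 0.00219). Tpi1, which interconverts the triose phosphates (chr6:124810586-124814296), was at 5180.5, 5094, 5019, 5989 and 6233 in Young Sham and 6366, 10742 and 6083 in Aged Sham. Tpi1 was at 21419, 15483, 12943 and 7790.3 in Young Bleo and 22042, 26029, 6850.0 and 6374 in Aged Bleo. Aged Bleo 5 was barely above the highest Young Sham library, and Tpi1 rose 2.62-fold in Young Bleo (adjusted p = 0.00356) and 2.78-fold in Aged Bleo (adjusted p = 0.00236, and 0.0562 without Aged Bleo 2).

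Gpi1, glucose-6-phosphate isomerase (chr7:34202122-34230289), changed least of the called genes. It was at 9765, 10095, 9227, 8256 and 9096 in Young Sham and 9955, 13630.1 and 11858 in Aged Sham. Gpi1 was at 16098, 13651, 13182 and 11571 in Young Bleo and 16684, 15774, 11366 and 10258 in Aged Bleo. Both bleomycin groups were above Young Sham without overlap, by 1.47-fold in Young Bleo (adjusted p = 0.00761) and 1.46-fold in Aged Bleo (adjusted p = 0.0128), just inside the fold threshold. The first call was lost without Young Bleo 17 (0.0606) and the second without Aged Bleo 1 or 2 (up to 0.112).

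Hk2, the inducible hexokinase (chr6:82725025-82774454), had the largest fold change of the 35 genes in Aged Bleo, at the edge of detection. It was at 2.83, 0, 0, 2.34 and 0 in Young Sham and 9.99, 6.92 and 43.9 in Aged Sham. Hk2 was at 8.66, 7.28, 5.51 and 3.09 in Young Bleo and 113, 71.5, 17.4 and 28.4 in Aged Bleo. The 5 Young Sham libraries held 5 counts of the gene in all, the 4 Young Bleo libraries 26, the 3 Aged Sham libraries 59 and the 4 Aged Bleo libraries 305. All Aged Bleo libraries were above all Young Bleo libraries, which were above all Young Sham libraries. Hk2 rose in Aged Bleo against Young Sham (log2 fold change 5.74 ± 1.02 (SE), adjusted p = 2.25e-06; edgeR 0.00683) and in Aged Sham (log2 fold change 4.25 ± 1.09 (SE), adjusted p = 0.00672; edgeR 0.084), while Young Bleo did not pass (5.67-fold, adjusted p = 0.0895). The Aged Sham call was lost without Aged Sham 15, with an adjusted p of 0.149, and the fitted fold changes of so few counts are imprecise. Hk1, Pfkm, Pfkp and Aldoc, the constitutive hexokinase, the muscle and platelet phosphofructokinase subunits and the brain aldolase, were called in none of the comparisons.

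In lower glycolysis, from glyceraldehyde phosphate to pyruvate, 3 of 5 genes were higher in Young Bleo, 4 in Aged Bleo and none in Aged Sham (DESeq2; 0 at an unadjusted p under 0.05 by DESeq2 and by edgeR). Eno1, the ubiquitous enolase (chr4:150236721-150248879), was at 5164, 5234, 5659, 5540.1 and 5311 in Young Sham and 6698, 7919 and 5027 in Aged Sham. Eno1 was at 12980.0, 16055, 12553 and 7503 in Young Bleo and 13309, 16337, 6280.1 and 7040.1 in Aged Bleo. Both bleomycin groups were above the narrow Young Sham range, by 2.28-fold in Young Bleo (log2 fold change 1.19 ± 0.27 (SE), adjusted p = 0.00033) and 2.00-fold in Aged Bleo (log2 fold change 1.00 ± 0.27 (SE), adjusted p = 0.00485; 0.077 without Aged Bleo 2). Gapdh, often used as a reference gene, ranged from 8251 to 11378 normalized counts in Young Sham and from 12751 to 26750.1 in Young Bleo, and rose 2.14-fold there (adjusted p = 0.0101, and 0.0633 without Young Bleo 17). In Aged Bleo Gapdh was 2.17-fold (adjusted p = 0.0118; edgeR 0.0512), with replicate 5 inside the Young Sham range and an adjusted p of up to 0.168 without Aged Bleo 1 or 2. Pgk1 was called in both groups at 0.85 and 0.86 on the log2 scale and Pkm, pyruvate kinase, in Aged Bleo at 0.84, and edgeR made none of these 3 calls, nor that of Gapdh in Aged Bleo, which left 2 of 5 genes of lower glycolysis called by edgeR in Young Bleo and 1 in Aged Bleo. Pgk1 in Young Bleo was lost without Young Bleo 17, 18 or 19 or Young Sham 22 to 25, Pgk1 in Aged Bleo without Aged Bleo 1 or 2 or Young Sham 22 to 25, and Pkm without Aged Bleo 1 or 2 or Young Sham 23 to 25. Pgam1 was not called in any comparison. Gapdh, Pgk1, Pgam1 and Ldha have processed copies in the genome whose reads the counting could share.

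Ldha, the lactate dehydrogenase subunit that favours lactate (chr7:46841475-46855627), was at 10830.2, 11563, 9038, 11534 and 10527 in Young Sham and 61787, 50894, 50095 and 23059 in Young Bleo. It was at 10079, 26962 and 11828 in Aged Sham and 65999, 73326, 18397 and 15297 in Aged Bleo. The bleomycin groups were above Young Sham without overlap, with Young Bleo 20 and Aged Bleo 3 and 5 the lowest of them, and Aged Sham 14 exceeded these 3 libraries. Ldha rose 4.34-fold in Young Bleo (log2 fold change 2.12 ± 0.42 (SE), adjusted p = 2.63e-05; edgeR 0.00736) and 4.04-fold in Aged Bleo (log2 fold change 2.02 ± 0.42 (SE), adjusted p = 9.58e-05; edgeR 0.0127). Both calls were kept under every library left out. Ldhb, the subunit that favours pyruvate, was at 0.775 ± 0.277 FPKM in Young Sham against 35.4 ± 3.22 for Ldha and was not called, with all Aged Sham libraries above all Young Sham libraries (1.11 ± 0.40, adjusted p = 0.103 by DESeq2).

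Of the 3 regulators of flux, Pdk1 was called in both bleomycin groups and Pfkfb3 in both aged groups. Pdk1, the kinase that keeps pyruvate out of the mitochondria by switching off pyruvate dehydrogenase (chr2:71873224-71903858), was at 547, 364, 363, 248 and 420.4 in Young Sham and 605, 978 and 299 in Aged Sham. Pdk1 was at 1969, 1467, 1128 and 767 in Young Bleo and 2356, 2863, 572 and 792 in Aged Bleo. Both bleomycin groups were above Young Sham without overlap, by 3.43-fold in Young Bleo (log2 fold change 1.78 ± 0.44 (SE), adjusted p = 0.00119) and 4.24-fold in Aged Bleo (log2 fold change 2.08 ± 0.44 (SE), adjusted p = 0.000135). Pfkfb3, which makes the activator of phosphofructokinase and is known from sprouting vessels (chr2:11471433-11554077), was at 1012, 1074, 1394, 859.8 and 1039 in Young Sham and 1415, 2603 and 1375 in Aged Sham. Pfkfb3 was at 1438, 1043, 975 and 1371 in Young Bleo and 1839, 1896, 1544 and 1706 in Aged Bleo. All Aged Bleo libraries were above all Young Sham and all Young Bleo libraries, while Young Bleo overlapped with Young Sham. Pfkfb3 rose 1.62-fold in Aged Bleo (log2 fold change 0.70 ± 0.21 (SE), adjusted p = 0.0127; edgeR 0.0461) and 1.67-fold in Aged Sham (log2 fold change 0.74 ± 0.23 (SE), adjusted p = 0.0369; edgeR 0.123), and Young Bleo was 0.17 ± 0.21, adjusted p = 0.684. The Aged Bleo call was lost without Aged Bleo 1 or 2 (adjusted p of up to 0.0668) and the Aged Sham call without Aged Sham 14 or Young Sham 21, 22, 24 or 25 (up to 0.424). Pfkfb4 was not called in any comparison.

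Set against their own age-matched sham, aged ECs gave few calls. In Aged Bleo against Aged Sham 2 of 35 genes were higher, Pfkl and Adm, against 3.40% of all genes called higher and 2.45% called lower, and edgeR called 0, beside 0.797% of all genes, with 13 genes at an unadjusted p under 0.05 by either test. Of these 13, 12 were higher and Epas1 was lower. The median log2 fold change of the group was 0.46, and 31 of 35 genes had a positive sign. With a library left out the median ranged from 0.27 without Aged Bleo 2 to 0.78 without Aged Sham 14. Pfkl was 2.71-fold (log2 fold change 1.44 ± 0.43 (SE), adjusted p = 0.0191; edgeR 0.108) and Adm 10.5-fold (log2 fold change 3.39 ± 0.91 (SE), adjusted p = 0.00771; edgeR 0.0865), and both overlapped between the groups. Pfkl was lost without Aged Bleo 1 or 2 or Aged Sham 13 or 15 (adjusted p of up to 0.163) and Adm without Aged Bleo 1 or 2 or Aged Sham 15 (up to 0.0639). Ldha (1.41 ± 0.48, adjusted p = 0.0518) and Pdk1 (1.39 ± 0.50, adjusted p = 0.0749) did not pass. The count moved with single libraries of both groups: 0 without Aged Bleo 1, Aged Bleo 2 or Aged Sham 15, 1 without Aged Sham 13, 6 without Aged Sham 14 or Aged Bleo 5 and 7 without Aged Bleo 3. Without Aged Bleo 1 and 2 together DESeq2 called 0 of the 35 genes, against 0.738% of all genes in either direction, with 2 at an unadjusted p under 0.05 and a median of 0.0039.

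The bleomycin groups of the 2 ages differed in 1 gene. In Aged Bleo against Young Bleo Hk2 was higher (log2 fold change 3.23 ± 0.87 (SE), adjusted p = 0.0272; edgeR 0.336), against 0.585% of all genes called higher and 0.406% called lower. edgeR called 0 of the 35 genes, beside 0.0437% of all genes, with 5 at an unadjusted p under 0.05 by either test. The Hk2 call was lost without Aged Bleo 1, Aged Bleo 2 or any of the 4 Young Bleo libraries, with an adjusted p of up to 0.134. Pfkfb3, Pfkfb4 and Ero1l were also above Young Bleo in all Aged Bleo libraries without passing the test, so that 4 of 35 genes lay above without overlap and 0 below, against 2.8% and 2.22% of the 18986 genes tested. For Ldha the 95% interval of the log2 difference was -0.97 to 0.77, for Pfkl -0.96 to 0.59, for Bnip3 -1.12 to 1.42 and for Ndrg1 -1.13 to -0.02, where the adjusted p was 0.452. With Aged Bleo 1 and 2 left out, 8 of the 35 genes were called lower in Aged Bleo and Hk2 was not called. These libraries were above the other 2 for 29 of the 35 genes, so leaving them out fixes the direction of such calls, and 2 libraries remain in the group. Across all genes 3.33% were then called lower, and the genes called in either direction went from 111 higher and 77 lower with all libraries to 538 higher and 560 lower.

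The bleomycin response itself was compared between ages as the difference of the log2 fold changes, aged minus young. Ndrg1 alone was called, with a smaller response in aged ECs (log2 fold change -1.61 ± 0.41 (SE), adjusted p = 0.0324; edgeR 0.336), from 1.95 in young and 0.34 in aged ECs. Across all genes 0.137% were called with a larger and 0.240% with a smaller aged response, and edgeR called 0 of the 35 genes, beside 0.00546% of all genes, with 3 genes at an unadjusted p under 0.05 against 4 by DESeq2. The median difference of the 35 genes was -0.36, and 24 of them were negative. The Ndrg1 call was lost without Aged Bleo 3 or 5, Aged Sham 14, Young Bleo 17, 18 or 19 or Young Sham 21, 23 or 25, with an adjusted p of up to 0.17. Pfkp was also called without Young Bleo 20, but with a larger response in aged ECs (0.62 with all libraries, not called). Without Aged Sham 14 the median difference was 0.04, and without Aged Bleo 1 and 2 it was -0.93 and 11 of the 33 genes tested were called with a smaller aged response, a direction that leaving out these libraries fixes. In that fit 2.33% of all genes were called with a smaller aged response, and 233 genes with a larger and 369 with a smaller one, against 28 and 49 with all libraries.

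Within enzyme families the share of a single member was compared with that of its sister genes. Pfkl made up 39.5, 41.4, 38.1, 38.2 and 34.1 percent of the summed FPKM of Pfkl, Pfkm and Pfkp in the 5 Young Sham libraries, 83.5, 78.9, 70.5 and 68 percent in Young Bleo, 39.5, 62.2 and 37.1 percent in Aged Sham and 80.1, 76.4, 60.8 and 59.5 percent in Aged Bleo. Every bleomycin library but Aged Bleo 3 and 5 was above every sham library, and those 2 were below Aged Sham 14 only. The mean share was 38.3% ± 2.7 (SD, n = 5) in Young Sham, 46.3% ± 13.8 (n = 3) in Aged Sham, 75.2% ± 7.21 (n = 4) in Young Bleo and 69.2% ± 10.6 (n = 4) in Aged Bleo. Pfkl and P4ha2 were picked for this description after they had been called and their sister genes had not, so it restates those calls and carries no test.

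P4ha2 gave the same order. Its share of P4ha1 plus P4ha2 was 19.9% ± 3.4 in Young Sham, 29.7% ± 5.21 in Aged Sham, 41.5% ± 8.61 in Young Bleo and 36.2% ± 4.62 in Aged Bleo, and it was higher in every bleomycin library than in every Young Sham library. Hif1a was 2.63% ± 0.581 of Hif1a plus Epas1 in Young Sham, 2.12% ± 0.871 in Aged Sham, 6.07% ± 1.68 in Young Bleo and 4.45% ± 2.44 in Aged Bleo. Hk2 stayed a trace of Hk1 plus Hk2 in every group, with 0.0315% ± 0.0433 in Young Sham, 0.598% ± 0.526 in Aged Sham, 0.156% ± 0.0704 in Young Bleo and 1.29% ± 0.951 in Aged Bleo. Pfkm overlaps Senp1 and Pfkp overlaps Pitrm1 along the genome, so their levels can include reads of these neighbours.

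**Figure D4:**
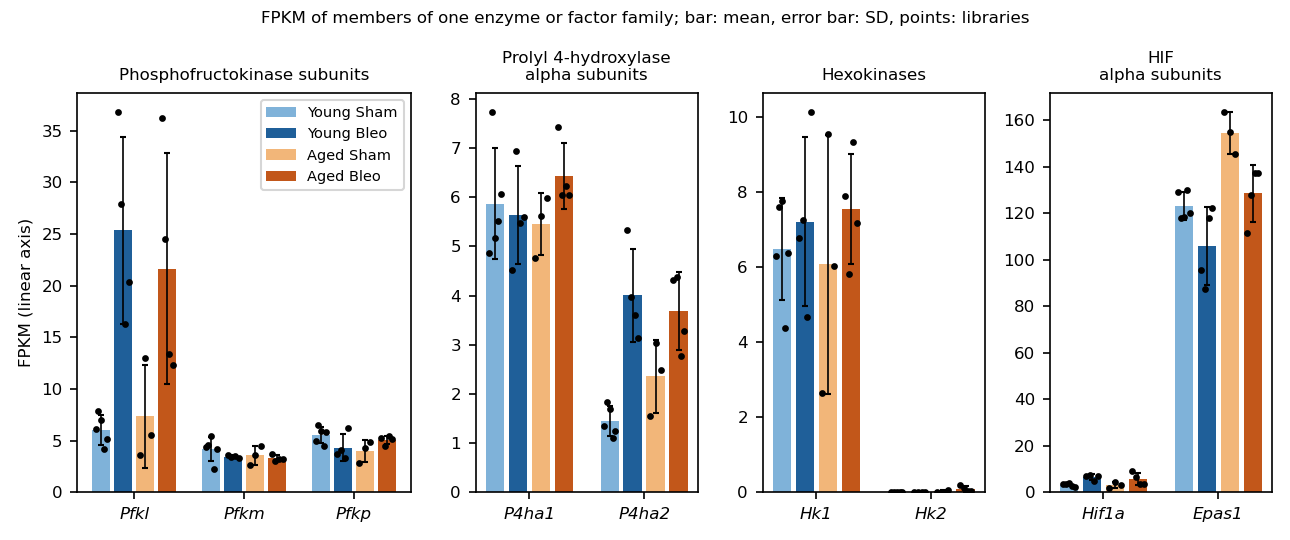
FPKM (linear axes, which differ between panels) of the members of 4 families by group, with bars at the mean, error bars at the SD and a point for each library. Pfkl and P4ha2 are higher in Young Bleo and Aged Bleo while Pfkm, Pfkp and P4ha1 were not called, and Hk1 exceeds Hk2 and Epas1 exceeds Hif1a in every group.

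The 35 genes took 0.443% to 0.470% of all counts in the Young Sham libraries, 1.09, 0.897, 0.8289 and 0.627 percent in Young Bleo 17, 18, 19 and 20, 0.509, 0.780 and 0.537 percent in Aged Sham 13, 14 and 15, and 1.16, 1.24, 0.596 and 0.577 percent in Aged Bleo 1, 2, 3 and 5. Aged Bleo 1 and 2 were both above Aged Bleo 3 and 5 for 29 of the 35 genes, against 26.2% of the 18515 genes tested, and both below for 2, against 25.2%. Young Bleo 20 was the lowest of its group for 20 genes, against 31.2% of all genes, and Aged Sham 14 the highest of its group for 26, against 31.9%. These orders were noticed in the data and carry no test.

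The macrophage marker sum was highest in Aged Bleo 1 and 2, lowest among Young Bleo in replicate 20 and highest among Aged Sham in replicate 14, as the share of the 35 genes was. Aged Sham 14 was also the highest of its group for platelet, red cell and epithelial markers. The epithelial sum was 61.5 to 565 FPKM in Young Sham, 145.9 to 535 in Young Bleo, 133.6 to 646 in Aged Sham and 164.9 to 410 in Aged Bleo. Of 6 epithelial markers 1 was lower in each bleomycin group against Young Sham. Of the 9 macrophage markers 6 were higher in Young Bleo and 7 in Aged Bleo against Young Sham, 7 in Aged Bleo against Aged Sham and 0 in the remaining pairs. Lyz2, the lysozyme gene, made up most of the sum, with 20.9 to 37.9 FPKM in Young Sham and 178 to 1265 in Aged Bleo. Cd68 was at 0.433 to 1.01 FPKM in Young Sham and at 62.2, 42.7, 10.6 and 7.33 in Aged Bleo 1, 2, 3 and 5, and Chil3 at 0.28 to 4.29 and at 174.9, 77.0, 19.9 and 18.0. C1qa was at 0.22 or less and at 19.6, 16.5, 0.538 and 1.86, and C1qb at 0.21 or less and at 22.4, 21.0, 0.749 and 3.18. Mmp12 was at 0.00869 or less in Young Sham and highest in Young Bleo 17, at 18.1. Marco was at 3.21 FPKM in Aged Bleo 1 and at 0.39 or less elsewhere, and Mrc1 at 1.19 or less and Csf1r at 2.18 or less in every library. Aged Bleo 3 and 5 carried 361 and 212 FPKM of macrophage markers, inside the Young Bleo range, with 0.596% and 0.577% of counts in the 35 genes, below all Young Bleo libraries. Cycling genes moved as well, with 4 of 4 higher in Young Bleo and 3 in Aged Bleo against Young Sham. Mesothelial markers were higher in 3 of 3 in each of the other groups against Young Sham, with a summed FPKM of 0.0041 to 1.18 in Young Sham, 2.71 to 12.3 in Aged Sham, 4.94 to 15.3 in Young Bleo and 0.506 to 5.50 in Aged Bleo. Pericyte and smooth muscle markers were lower in 5 of 5 in Aged Bleo and in 2 of 5 in Young Bleo and in Aged Sham, with sums of 27.6 to 67.7 in Young Sham, 16.9 to 29.5 in Aged Sham, 11.5 to 31.5 in Young Bleo and 8.65 to 12.0 in Aged Bleo. Fibroblast markers were lower in 4 of 6 in Aged Bleo, with sums of 13.1 to 31.8 in Young Sham and 6.83 to 11.7 in Aged Bleo. Other leukocyte markers were higher in 2 of 6 tested in each of the 3 groups against Young Sham, and red cell markers in 1 of 3 in Young Bleo and in Aged Sham, with a red cell sum of 28.8 to 152 in Young Sham, 225.6 to 474 in Aged Sham and 143.6 to 597 in Young Bleo. The part of these cells and of cycling in the differences of glycolysis and hypoxia genes was not tested, and in bulk RNA more cells with a transcript and more transcript per cell cannot be told apart.

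**Figure D5:**
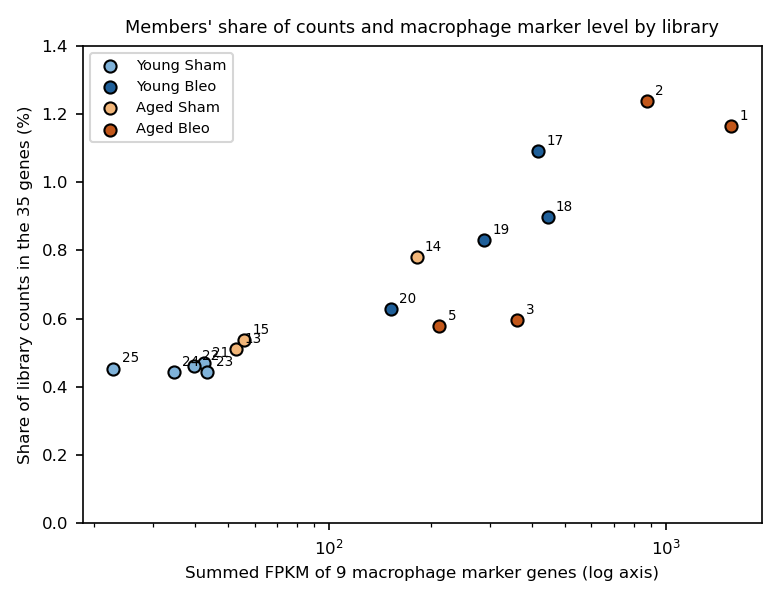
Share of each library's counts in the 35 genes (y axis, percent) against the summed FPKM of 9 macrophage markers (x axis, log), with a point for each of the 16 libraries, labelled by replicate. Young Sham libraries sit at the lower left, Aged Bleo 1 and 2 at the upper right, and Aged Bleo 3 and 5 below the Young Bleo libraries of like marker level.

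Further genes of the pathway, listed by role alongside the 35, gave 8 higher and 0 lower of 50 tested in Young Bleo, 13 and 0 in Aged Bleo and 2 and 1 in Aged Sham against Young Sham, and 5 and 2 in Aged Bleo against Aged Sham. Across all genes 7.57% were higher and 6.35% lower in Young Bleo, 6.58% and 3.14% in Aged Bleo, 2.24% and 1.12% in Aged Sham, and 3.40% and 2.45% in Aged Bleo against Aged Sham. By edgeR these counts were 6 and 0, 8 and 0, 0 and 0, and 1 and 1, beside 9.78%, 5.69%, 0.862% and 0.797% of all genes in either direction. Of the transporters, Slc2a1, the glucose carrier of endothelium, was 2.25 ± 0.52 in Young Bleo (adjusted p = 0.000425) and 2.47 ± 0.52 in Aged Bleo (adjusted p = 0.000116) on the log2 scale. Slc16a3, the lactate exporter, was 2.72 ± 0.70 (0.00203) and 3.17 ± 0.70 (0.000289), and Slc16a1, another lactate carrier, 1.65 ± 0.54 (0.0191; edgeR 0.0634) and 2.41 ± 0.54 (0.00032). Slc16a1 was also higher in Aged Sham against Young Sham (1.89 ± 0.59, 0.0393; edgeR 0.148). Slc2a1 (2.08 ± 0.59, 0.0138; edgeR 0.117) and Slc16a3 (2.74 ± 0.80, 0.0171; edgeR 0.0967) were also higher in Aged Bleo than in Aged Sham. Slc2a3, the remaining transporter and another glucose carrier, had the opposite sign in Young Bleo (-1.31 ± 0.67, 0.189) and Aged Bleo (-0.63 ± 0.67, 0.65) without passing, and was lower in Aged Bleo than in Aged Sham (-2.62 ± 0.76, 0.0165; edgeR 0.0872). Of 19 further hypoxia response genes 4 were higher in Young Bleo and 7 in Aged Bleo by DESeq2, and 3 and 4 by edgeR. They included Bhlhe40, a transcriptional repressor, at 2.17 ± 0.50 (0.000365) and 2.81 ± 0.50 (2.17e-06), Ddit4, an inhibitor of mTOR, at 1.88 ± 0.43 (0.000312) and 1.88 ± 0.43 (0.000431), and Mif, a cytokine, at 1.37 ± 0.32 (0.000422) and 1.19 ± 0.32 (0.00358). Vegfa, the main endothelial growth factor, was higher in Aged Bleo than in Aged Sham (0.87 ± 0.26, 0.0181; edgeR 0.083). Against Young Sham it was not called in either bleomycin group (0.40 ± 0.23, 0.253 and 0.48 ± 0.23, 0.175), nor was Bnip3l, the sister gene of Bnip3 (-0.03 ± 0.17, 0.945 and -0.08 ± 0.17, 0.845), and Vegfa, Bnip3l and Slc2a3 were chosen here after their values were seen. Cited2, which competes with HIF for its coactivator, rose by 0.65 ± 0.20 (0.0113) and 0.93 ± 0.20 (0.000142). Loxl2, a collagen cross-linking oxidase, was below Young Sham in Aged Sham (-1.88 ± 0.43, 0.00138; edgeR 0.0558) and higher in Aged Bleo than in Aged Sham (2.13 ± 0.45, 0.00034; edgeR 0.0445). Taldo1, of the pentose phosphate branch, was higher in Aged Sham (0.60 ± 0.17, 0.0176; edgeR 0.0978) and lower in Aged Bleo than in Aged Sham (-0.86 ± 0.18, 0.000309; edgeR 0.0444). Hk3, a hexokinase known from myeloid cells, was higher in Aged Bleo against Young Sham (3.12 ± 1.07, 0.037; edgeR 0.113) and against Aged Sham (4.92 ± 1.28, 0.0057; edgeR 0.118). None of the 9 genes that control pyruvate dehydrogenase was called in any comparison by DESeq2 (2 at an unadjusted p under 0.05 in Young Bleo by DESeq2 and by edgeR, 1 in Aged Sham and in Aged Bleo).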

How the data were processed

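RNA of sorted lung ECs was sequenced in 16 libraries, grouped by the age and treatment in their labels. The authors aligned reads to mm10 with STAR 2.5.2b and counted them per gene with featureCounts, and the deposited table holds raw counts and FPKM values per library; the strand setting and the annotation release are not given in the sources used here, and the labels and the methods name different library kits. Gene counts were tested with DESeq2 1.42.0 in R 4.3.3, in a single fit of all libraries, with Benjamini-Hochberg adjustment over all genes tested. edgeR 4.0.16 (quasi-likelihood) and limma 3.58.1 (log2 of FPKM plus 0.1 or plus 1) were alternatives, beside TMM size factors, a low-count filter, fits of the compared groups alone and each library left out in turn. Shares of isoforms in FPKM are a description. In simulated counts with known changes DESeq2 found more of the changed genes than edgeR, and a larger share of its calls was false than its threshold allows and than with edgeR, so calls that DESeq2 alone makes are less sure. Genes given in every library were those called by DESeq2 in at least 1 pairwise comparison, up to 14 in order of their lowest adjusted p, and, whatever their result, Hif1a, Epas1, Hk2, Pfkfb3, Ldha, Car9, Egln3 and Adm; of the further pathway genes, up to 10 called in a pairwise comparison were named in the same order. The 35 genes and all other lists were chosen with earlier results of these data known.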

Additional observations from a re-analysis of the deposited data

Results flagged for a closer look

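Of 105 pairs of gene and group examined for a library far from its group, 4 were found, where chance gives about 1 in 20 groups. They were Pfkm in Young Sham 24 (706.5 normalized counts), Egln3 in Young Sham 24 (0), Epas1 in Aged Bleo 1 (59690.0), below the other libraries of that group, and Car9 in Young Sham 22 (4.94), where the other Young Sham libraries had no count. The bleomycin response of Ndrg1 differed between ages, with a log2 difference of -1.61 (aged minus young) by the interaction term of DESeq2 (adjusted p = 0.0324) and an adjusted p of 0.336 by edgeR.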

How the results depend on the processing

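No paired analysis was possible because the replicate numbers differ between the groups. No log2 fold change called with all libraries changed sign under any alternative run. Genes called only in an alternative could change sign. Without Aged Bleo 1 and 2, Adm, Tpi1, Gapdh and Bnip3 were called lower in Aged Bleo against Young Bleo. Their log2 fold changes with all libraries were 1.53, 0.09, 0.02 and 0.15. Ndrg1, Hif1a, Ldha and Eno1, also called lower there, were negative with all libraries too. With edgeR the number of the 35 genes called was 0 in Aged Sham against Young Sham, 0 in Aged Bleo against Aged Sham, 0 in Aged Bleo against Young Bleo and 0 for the difference of responses. With limma on FPKM 32 of the 35 genes were in the fit, which needed 0.5 FPKM or more in 3 libraries. The number called was 0 in these 4 comparisons and 10 in Aged Bleo against Young Sham, with either pseudocount. Hk2, at 0.188 FPKM or less, was not in that fit, so its calls could not be made there, among them the only 1 in Aged Bleo against Young Bleo. With the compared groups alone 1 gene was called in Aged Bleo against Aged Sham, Car9, while Pfkl and Adm were lost. In Aged Sham against Young Sham 5 were then called, with Hk2 and Pfkfb3 lost and Aldoa, Ankrd37 and Bnip3 gained. With a library left out in turn the number called ranged from 1 to 5 in Aged Sham, 12 to 20 in Young Bleo and 11 to 21 in Aged Bleo against Young Sham, 0 to 7 in Aged Bleo against Aged Sham, 0 to 1 in Aged Bleo against Young Bleo and 0 to 2 for the difference. Without Aged Bleo 1 and 2, an alternative chosen after seeing the data, it was 2 in Aged Bleo against Young Sham, 0 against Aged Sham, 8 against Young Bleo and 11 for the difference, in a direction that the choice of libraries fixes. The cause was not tested. Low counts limit Hk2, Car9 and Egln3.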
